A study of Mus musculus with 10 samples.

Results

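Cytochrome c oxidase, complex IV of the respiratory chain, was examined through the nuclear genes of its subunits in hippocampal RNA of aged mice. The 10 genes were chosen by name: Cox4i1, Cox5a, Cox5b, Cox6a1, Cox6b1, Cox6c, Cox7a2, Cox7b, Cox7c and Cox8a. A probe set, a group of short oligonucleotides for a transcript, was counted when the platform annotation gave it the symbol of a single gene on this list and no other gene. This gave 13 probe sets for 9 genes, out of 12488 probe sets in the whole table, which name 8252 genes by a single symbol. Cox7c had 2 probe sets, but the annotation assigns both to Cox7c and Gm12338 together, so they are described as shared probe sets and stay out of the counts.

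Total RNA of the hippocampus was taken from male C57BL/6 mice at 30 months of age. The control group was 5 mice fed a control diet, and the other group was 5 mice on a calorie restricted diet, described by the study as long-term. Each mouse was measured on 1 Affymetrix array, and the sources used here do not give the amount or duration of restriction. No genotype or treatment other than diet is named in the labels. The comparison asked how the transcripts of the oxidase differed between the diets. In bulk tissue, fewer cells of a type and less RNA per cell cannot be told apart.

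Cytochrome c oxidase takes electrons from cytochrome c, passes them to oxygen to form water, and pumps protons across the inner mitochondrial membrane. Its catalytic core is made of subunits encoded by mitochondrial DNA, and nuclear genes such as those described here encode the smaller subunits around it, which stabilise and regulate the enzyme. Several of these have a second isoform with another tissue distribution, and in neurons, whose ion pumping depends on oxidative phosphorylation, the enzyme has long served as a marker of metabolic activity.

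Signals are deposited intensities on a linear scale in arbitrary units. Each change is the calorie restricted mean log2 signal less the control mean, fitted in limma with its standard error (SE). The median change over the 7453 probe sets tested was -0.15, and relative changes have this median taken off. The adjusted p (limma, Benjamini-Hochberg over all 7453) tests the change before that median is taken off, which favours calls of lower over higher signal at an equal relative size. A probe set passed at an adjusted p under 0.05.

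The arrays of the diets differed in quality. The log2 difference between 3' and 5' control probe sets of Gapdh and Actb, which grows as RNA is broken, ran from -0.12 to 0.45 in control mice and was 0.79, 0.78, 5.20, 1.52 and 6.11 in calorie restricted replicates 1 to 5 (exact two-sided permutation p = 0.00794, adjusted p = 0.00794 over 3 measures). The mean log2 signal of bacterial spike-in probe sets ran from 10.50 to 11.80 in control and from 12.41 to 13.67 in calorie restricted mice, and the median log2 signal of all probe sets from 7.79 to 7.92 and from 7.25 to 7.69, with the same exact p, the smallest that 252 arrangements can give. Hippocampal markers were present: of 7 on the array, 6 passed the signal filter, with 0 higher and 0 lower, and Prox1 lay below it. Among neuronal markers, 3 of 8 tested were lower (Syt1, Nefl and Neurod6). Another 3 had a relative change above 0, Snap25 at 0.63, Stmn2 at 0.46 and Tubb3 at 0.17. Of 6 interneuron markers tested, 3 were higher (Slc32a1, Npy and Pvalb). All 6 had a relative change above 0, with Gad1 at 0.23 (limma adjusted p = 0.823). The interneuron markers Gad2 and Vip lay below the filter, and their mean log2 signal was lower in calorie restricted mice. For Gad2 it was 7.63 in control and 5.18 in calorie restricted mice. Astrocyte, oligodendrocyte and microglial lists had 1 higher and 1 lower of 8, 0 and 3 of 7, and 0 and 2 of 8, and choroid plexus and endothelial lists 0 and 2 of 4 and 0 and 0 of 5. Over these lists the summed signal overlapped between diets, except for interneuron markers (17054 to 27616 in control and 35021 to 40604 in calorie restricted mice) and astrocyte markers (18050 to 24566 and 26226 to 32758). The higher sums were not shared by all markers of these lists. Of the 8 astrocyte markers 5 had a relative change above 0, while Aqp4 had -1.39 and Gjb6 -1.09. The oligodendrocyte and microglial lists were mixed as well. Of 7 oligodendrocyte markers tested 2 lay above 0, Mobp at 0.87 and Mog at 0.22. Among 8 microglial markers 3 did, Aif1 at 1.31, Tyrobp at 0.73 and Csf1r at 0.43. The part of RNA quality, spike-in signal or cell makeup in the results on the subunits was not tested except where a value is given.

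Transcripts of Cox6a1 and Cox7a2 were higher in calorie restricted mice and those of Cox6b1 were lower, while Cox5b, Cox6c, Cox7b and Cox4i1 did not pass. Cox6a1 had 2.85 times the control signal relative to the median change and Cox7a2 had 2.16 times, and Cox6b1 was lower 1.73-fold. Of the 13 probe sets 8 passed the signal filter, and of these 2 rose, 1 fell and 5 did not pass. Over all probe sets tested, 4.11% were called higher and 7.74% lower. Groups did not overlap in 2 of the 8 in the higher and 1 in the lower direction, against 4.96% and 9.35% of all probe sets tested. The median relative change of the 8 was 0.73, with a range from -0.79 to 1.51. It was 0.28 under quantile normalization, which gives every array the same distribution of signals, 0.17 with RNA quality as covariate and 0.37 without calorie restricted replicates 3 and 5. The probe sets of Cox6a1, Cox7a2, Cox6c, Cox5b and Cox7b were among the 1491 brightest of those tested, where the median relative change was 0.28 and 11.1% were called higher, and 2 of these 5 were called higher. These counts differed under quantile normalization. Under that normalization 0 of the 8 were called higher and 0 lower, against 4.32% and 3.74% of all; at an unadjusted p under 0.05, 3 of the 8 and 2076 of all probe sets did so. The split over all probe sets moved from 306 higher and 577 lower to 322 and 279.

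The upstream sequences of the 3 genes that passed are shown because genes of the respiratory chain are classically controlled by nuclear respiratory factor 1 (NRF1), by ETS factors of the GABP type and by Sp1. Each is the 250 bases before the RefSeq transcription start in GRCm38.p6, read 5′ to 3′ on the gene's strand, which is the minus strand for all 3. Capitals mark exact matches, on either strand, to the 10-base palindromic NRF1 consensus, CCGGAAG (ETS, also as CTTCCGG) or GGGCGG (Sp1, also as CCGCCC); no match overlaps another. The windows are chr5:115348959-115349208 for Cox6a1, chr9:79759854-79760103 for Cox7a2 and chr7:30626115-30626364 for Cox6b1.
Cox6a1: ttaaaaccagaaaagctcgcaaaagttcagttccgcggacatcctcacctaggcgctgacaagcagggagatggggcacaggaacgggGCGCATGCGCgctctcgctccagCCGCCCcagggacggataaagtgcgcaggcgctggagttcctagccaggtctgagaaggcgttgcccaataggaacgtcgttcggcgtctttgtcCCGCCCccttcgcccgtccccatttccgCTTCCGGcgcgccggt
Cox7a2: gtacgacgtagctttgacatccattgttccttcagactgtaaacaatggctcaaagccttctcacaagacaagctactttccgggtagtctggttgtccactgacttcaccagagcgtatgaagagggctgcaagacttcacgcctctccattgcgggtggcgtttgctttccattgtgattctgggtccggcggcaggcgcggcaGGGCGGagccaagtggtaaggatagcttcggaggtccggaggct
Cox6b1: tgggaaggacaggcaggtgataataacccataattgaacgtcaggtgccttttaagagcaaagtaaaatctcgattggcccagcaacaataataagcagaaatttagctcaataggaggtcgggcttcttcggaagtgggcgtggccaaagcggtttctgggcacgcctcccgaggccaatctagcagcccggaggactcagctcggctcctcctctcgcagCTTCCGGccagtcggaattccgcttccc

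Cox6a1 held the NRF1 letters 162 bases before the start, the ETS letters 16 bases before it and Sp1 letters at 139 and 44 bases. Cox7a2 held Sp1 letters alone, 44 bases before the start, and Cox6b1 held ETS letters alone, 28 bases before it. Windows were found for 8 of the 10 genes; Cox4i1 and Cox6c had none. Across the 8, 1 held NRF1, 2 held ETS and 3 held Sp1 letters, the third being Cox5a. Of 32851 RefSeq windows of the same length, 0.782% held the NRF1, 6.91% the ETS and 32.7% the Sp1 letters. The YY1 letters AAGATGG, searched on both strands, were in 0 of the 8 and in 4.49% of all windows. Within the 3 genes that passed, the risen Cox6a1 and the fallen Cox6b1 therefore both held ETS letters, and the risen Cox6a1 and Cox7a2 both held Sp1 letters. These matches describe letters in a window, and no binding was measured here.

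**Figure D1:**
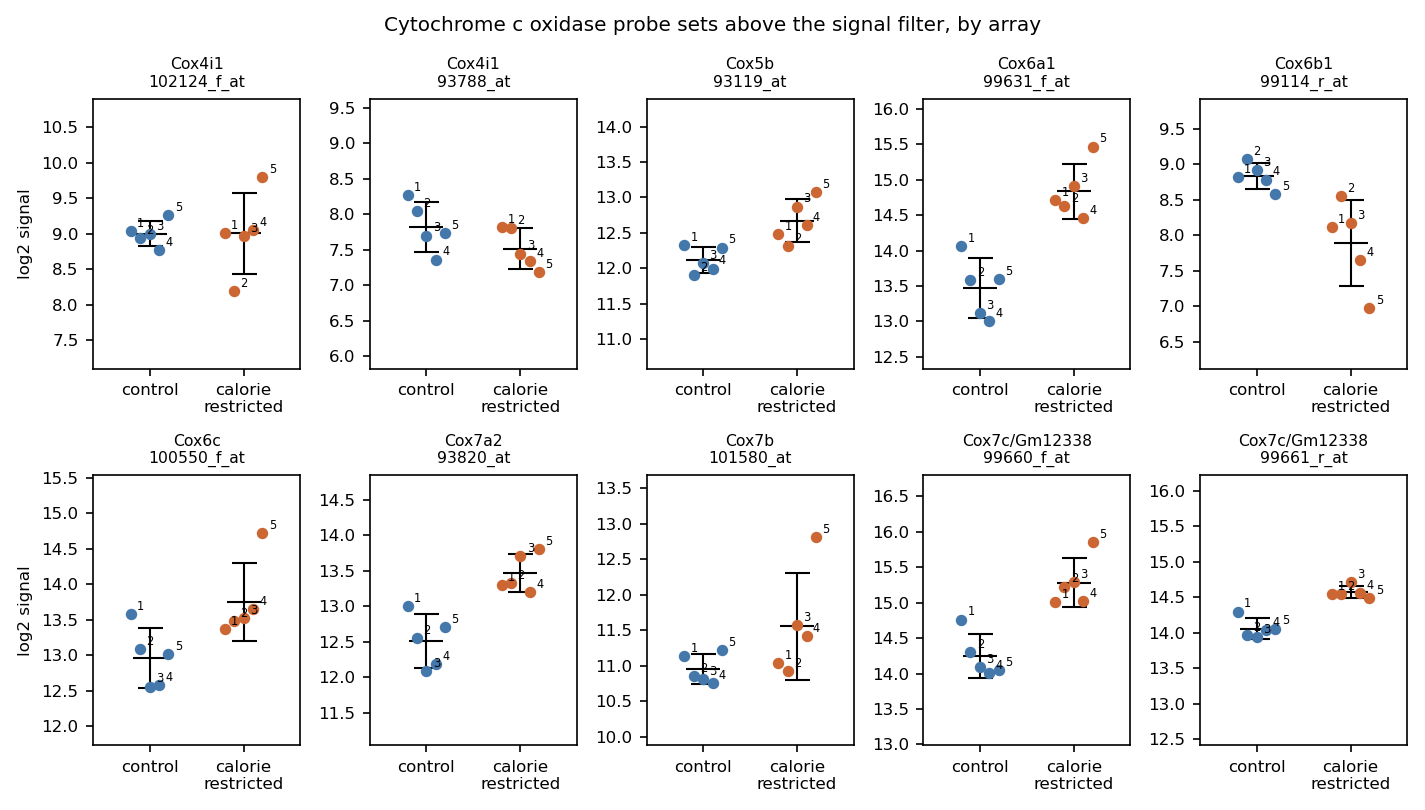
Log2 signal (y axis, a span of 3.8 in every panel) of the 8 tested probe sets of the oxidase and the 2 shared by Cox7c and Gm12338, for control and calorie restricted mice (x axis); points are arrays with their replicate number, and the bar is the mean ± SD of 5 arrays. Groups are apart in Cox6a1, Cox7a2, Cox6b1 and both shared probe sets, and calorie restricted replicate 5 is the highest of its group in Cox6a1, Cox6c, Cox7b, Cox5b and Cox7a2 and the lowest in Cox6b1.

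Cox6a1 encodes the widely expressed, liver-type form of subunit VIa. Its probe set, 99631_f_at, whose f mark stands for probes that can match several members of a sequence family, read 17150.1, 12292, 8870.2, 8243 and 12433 in control replicates 1 to 5 and 26858, 25369.8, 30701, 22448 and 45248 in calorie restricted replicates 1 to 5. The lowest calorie restricted array lay above the highest control array. The mean log2 signal was 13.48 ± 0.43 in control and 14.83 ± 0.39 in calorie restricted mice (SD, n = 5 each), a change of 1.36, or 1.51 ± 0.24 (SE) relative to the median (limma adjusted p = 0.0101). It passed with any single array left out, at 1.32 to 1.66 (adjusted p = 0.00859 to 0.0323). Under quantile normalization the groups still did not overlap (9413 to 19168 and 19795 to 25767), but the change was 0.75 ± 0.21 (SE) and the adjusted p 0.0504.

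Cox7a2 encodes the widely expressed form of subunit VIIa. Its probe set, 93820_at, read 8211, 6009, 4338, 4677 and 6712 in control and 10072, 10269.9, 13358, 9431 and 14359.9 in calorie restricted replicates 1 to 5. All 5 calorie restricted arrays were above all control arrays. The mean log2 signal was 12.51 ± 0.38 against 13.47 ± 0.27 (SD, n = 5 each), a change of 0.96, or 1.11 ± 0.21 (SE) relative to the median (limma adjusted p = 0.0183). Without control replicate 3 or 4 the change was 1.01 and 1.04 and narrowly missed the threshold (adjusted p = 0.0512 and 0.0511). Under quantile normalization the groups overlapped and the change was 0.56 ± 0.18 (SE; adjusted p = 0.0844).

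Cox6b1 encodes the widely expressed form of subunit VIb, which faces the intermembrane space near the cytochrome c side. Its only probe set, 99114_r_at, carries the r mark, given where design rules on probes were relaxed. It read 451, 538, 483, 441 and 383 in control and 277, 375, 288, 201 and 125 in calorie restricted replicates 1 to 5. The highest calorie restricted array lay just below the lowest control array. The mean log2 signal was 8.83 ± 0.18 against 7.89 ± 0.61 (SD, n = 5 each), a change of -0.94, or -0.79 ± 0.28 (SE) relative to the median (limma adjusted p = 0.0459). It passed in 3 of the 10 fits that left out 1 array, those without calorie restricted replicate 1, 2 or 5. In the other 7, without control replicate 1, 2, 3, 4 or 5 or calorie restricted replicate 3 or 4, the adjusted p ran up to 0.106.

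Cox5b, whose protein binds zinc on the matrix side, and Cox6c, a small subunit that spans the membrane, had higher signals without passing. Cox5b read 5153, 3829, 4310.0, 4093 and 5018 in control and 5724, 5108, 7497, 6273 and 8632 in calorie restricted replicates 1 to 5. The groups overlapped by calorie restricted replicate 2 alone, and the relative change was 0.71 ± 0.18 (SE; limma adjusted p = 0.0621). Without that array it passed (adjusted p = 0.0354). It was 0.23 under quantile normalization, 0.33 with RNA quality as covariate and 0.46 without calorie restricted replicates 3 and 5 (adjusted p = 0.367, 0.403 and 0.129). Cox6c read 12266, 8674, 6038, 6133 and 8319 in control and 10581, 11442, 11826, 12885 and 27114 in calorie restricted replicates 1 to 5. Control replicate 1 lay above calorie restricted replicates 1 to 3, and calorie restricted replicate 5 stood well above the rest. The relative change of Cox6c was 0.94 ± 0.28 (SE; limma adjusted p = 0.0826), 0.67 without that replicate and 0.33 under quantile normalization.

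Cox7b, another small membrane-spanning subunit, rested on the same array. It read 2244, 1842, 1795, 1731 and 2377 in control and 2103, 1943, 3051, 2724 and 7212 in calorie restricted replicates 1 to 5. Its relative change was 0.75 ± 0.31 (SE; limma adjusted p = 0.200) and 0.41 without calorie restricted replicate 5. Replicates 1 and 2 of the calorie restricted mice lay inside the control range.

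Cox4i1 encodes the main form of subunit IV, where ATP and ADP bind to adjust the rate of the enzyme. Of its 2 tested probe sets, 102124_f_at read 524, 491, 509.8, 435 and 612 in control and 515, 293, 500.1, 529.7 and 892 in calorie restricted replicates 1 to 5, a relative change of 0.16 ± 0.26 (SE; limma adjusted p = 0.989). The other, 93788_at, read 165 to 309 in control (median 213) and 145 to 226 in calorie restricted mice (median 174), a relative change of -0.15 ± 0.25 (SE; adjusted p = 0.426). The probe sets differed in direction, neither passed, and the sign of each turned under other scalings or covariates.

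The other 5 probe sets lay below the signal filter, a mean log2 signal of 6.85, and were not tested: both of Cox5a, the only one of Cox8a, and the remaining 2 of Cox6c. Their signals ran from 4.74 to 223 over all arrays. For Cox5a, the partner of subunit IV on the matrix side, 160438_at read 70.2 to 146 in control and 4.74 to 151 in calorie restricted mice, and 161490_at had medians of 49.2 and 26.8. For Cox8a, a very small membrane subunit, 92860_at read 34.6 to 94.6 in control and 6.26 to 91.0 in calorie restricted mice. Groups overlapped in all 5 of these probe sets, and at this signal neither Cox5a nor Cox8a could be compared between diets. Averaging all 3 probe sets of Cox6c brought its relative change to -0.08.

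The probe sets shared by Cox7c and Gm12338 were higher in calorie restricted mice. Cox7c encodes another small membrane subunit. The first, 99660_f_at, read 27741, 20261, 17497, 16483 and 17008 in control and 32805, 38326, 40130.4, 33371 and 59036 in calorie restricted replicates 1 to 5, a relative change of 1.19 ± 0.21 (SE; limma adjusted p = 0.0150). The second, 99661_r_at, read 15658 to 20132 in control and 23025 to 26943 in calorie restricted mice, a relative change of 0.67 ± 0.14 (SE; adjusted p = 0.0386). Groups did not overlap in either on the deposited scale. Under quantile normalization they overlapped in both, and the changes were 0.25 and -0.17 (adjusted p = 0.370 and 0.419), so the direction of the second turned. The second also passed in only 3 of the 10 fits that left out 1 array (without control replicate 1 or calorie restricted replicate 2 or 5), and missed the threshold without a signal filter and with RNA quality as covariate (adjusted p = 0.0950 and 0.110).

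**Figure D2:**
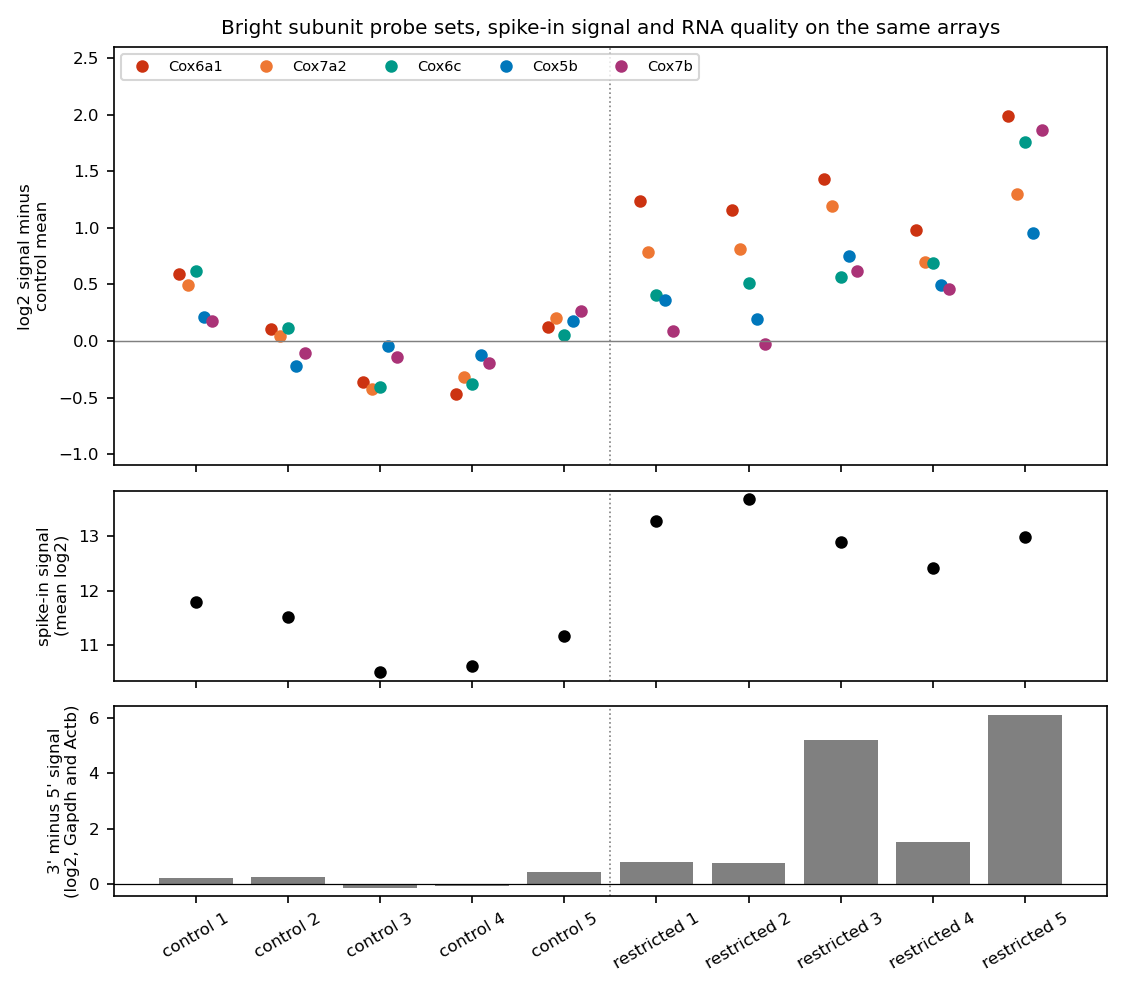
Top, log2 signal of 5 bright subunit probe sets minus their control mean on each of the 10 arrays (y axis, log2; x axis, diet and replicate); middle, mean log2 spike-in signal; bottom, log2 3' minus 5' signal of Gapdh and Actb. Among control arrays replicates 3 and 4 are lowest in spike-in signal and in Cox6a1, Cox7a2 and Cox6c, and among calorie restricted arrays replicate 5 is highest in all 5 subunits and in 3' minus 5' signal.

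Within each diet, the subunits were set beside the array measures. Within control mice the spike-in signal was 11.80, 11.52, 10.50, 10.62 and 11.17 in replicates 1 to 5. Replicates 3 and 4 were also the lowest of the control group in Cox6a1, Cox7a2 and Cox6c, and replicate 1 was the highest in all 3. In calorie restricted mice, replicates 3 and 5, with the largest 3' minus 5' differences, held the highest readings of Cox6a1, Cox7a2, Cox5b and Cox7b. The spike-in signal there was highest in replicate 2, at 13.67, which was the lowest of its group in Cox5b and Cox7b. It was 12.98 in replicate 5 and lowest in replicate 4, at 12.41, also the lowest of its group in Cox6a1 and Cox7a2. Averaged over the 7 genes tested (brightest probe set of each, each centred on its own mean), the log2 profile ran from -0.49 to 0.06 in control and from -0.01 to 0.74 in calorie restricted mice, and so overlapped. The root mean square distance of each gene from that average over the 10 arrays was smallest for Cox5b, at 0.13 on the log2 scale, and ran through 0.28 for Cox7a2 and Cox6c, 0.31 for Cox7b, 0.34 for Cox4i1 and 0.47 for Cox6a1 to 0.92 for Cox6b1. By the same distance, the nearest of 5688 other tested genes were Fkbp1b at 0.085, Ube2b at 0.086, Snrnp25 at 0.10, Dnajb6 at 0.10 and Atp6v1g1 at 0.11, with a median of 0.57 over all of them. None of these 5 passed in limma, with relative changes of 0.54 to 0.69.

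Settings that took array quality into account gave smaller changes for Cox6a1 and Cox7a2. With array weights Cox6a1 had 1.26, Cox7a2 0.91 and Cox6b1 -0.71, and each passed (limma adjusted p = 0.00768, 0.0218 and 0.0260). Over all probe sets 351 were higher and 703 lower in that fit. Without calorie restricted replicates 3 and 5, Cox6a1 had 1.23 ± 0.22 and Cox7a2 0.87 ± 0.20 (SE; limma adjusted p = 0.0150 and 0.0347), and Cox6b1 had -0.63 and did not pass (adjusted p = 0.0649). The counts were then 2 of 8 higher and 0 lower, against 3.98% and 6.52% of all probe sets. In the fit with RNA quality as covariate, Cox6a1 had 1.07 ± 0.26 (SE; adjusted p = 0.0487), Cox7a2 had 0.75 (adjusted p = 0.0974) and Cox6b1 had -0.45 (adjusted p = 0.310), so 1 of 8 was higher and 0 lower, against 2.08% and 2.39% of all. With spike-in signal added, Cox6a1 had 0.06 ± 0.37, Cox7a2 -0.07 ± 0.33 and Cox6b1 -0.91 ± 0.61 (SE), and 0 of the 8 passed in limma, as did 0 of all probe sets (at an unadjusted p under 0.05, 0 of the 8 and 907 of all). That fit hardly separates diet from its covariates, which account for 0.85 of the variance of diet (R2).

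**Figure D3:**
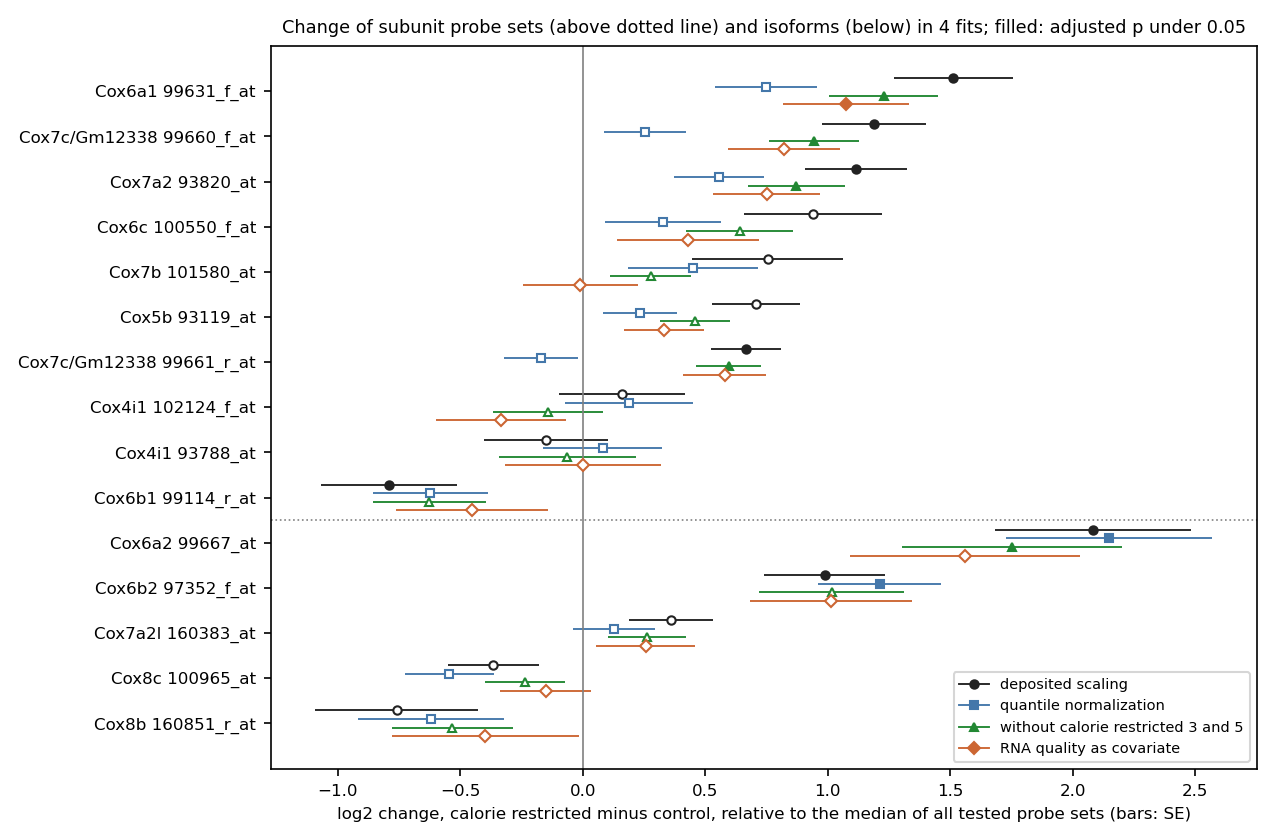
Log2 change relative to the median of all tested probe sets (x axis) with its SE for each probe set of the oxidase and its isoforms (y axis), in 4 fits; filled symbols have an adjusted p under 0.05. Under quantile normalization no subunit symbol is filled and Cox6a1 lies at 0.75 in place of 1.51, while Cox6a2 and Cox6b2 are filled at 2.15 and 1.21.

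Second isoforms of the subunits, from a list written down apart from the members, had 2 higher and 0 lower of 5 tested, beside the 4.11% and 7.74% of all probe sets. With RNA quality as covariate 0 of the 5 were called higher, against 2.08% of all. Cox6a2 encodes the form of subunit VIa found in heart and skeletal muscle. It read 259, 109.8, 102, 357 and 373 in control and 722, 487, 952, 781 and 1177 in calorie restricted replicates 1 to 5. The groups did not overlap, and the relative change was 2.08 ± 0.40 (SE), or 4.23-fold (limma adjusted p = 0.0154). It passed with any single array left out, at 1.83 to 2.29, and under quantile normalization at 2.15 (adjusted p = 0.0153), but in the fit that held RNA quality it had 1.56 and did not (adjusted p = 0.0872). Of 8 striated muscle markers on the array 4 were tested, and 0 were higher and 1 lower. Acta1, Ckm, Myh4 and Actn3 had relative changes of 0.38, 0.33, -0.12 and -1.71, and Myh2, Tnnt3, Tnni2 and Mb lay below the filter. The summed signal of the 8 ran from 874 to 1507 in control and from 652 to 1136 in calorie restricted mice. The part of muscle tissue, or of any other difference in cell makeup such as that of interneuron markers, in the Cox6a2 signal was not tested.

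Cox6b2, the testis form of subunit VIb, read 148, 119.5, 138, 113 and 111 in control and 181, 271, 182, 266 and 232 in calorie restricted replicates 1 to 5 on its only tested probe set, 97352_f_at. The groups did not overlap, and the relative change was 0.99 ± 0.25 (SE; limma adjusted p = 0.0463). It passed in 1 of the 10 fits that left out 1 array, that without calorie restricted replicate 1, with adjusted p up to 0.0979 in the others. It passed under quantile normalization at 1.21 (adjusted p = 0.0191), but not with RNA quality as covariate, without calorie restricted replicates 3 and 5 or without a signal filter (adjusted p = 0.119, 0.0709 and 0.0734). Its other 2 probe sets lay below the filter. The sign was opposite to that of Cox6b1, the other gene for subunit VIb. Cox8b, the muscle form of subunit VIII, had -0.76 ± 0.33 (SE) and Cox8c, its testis form, -0.36 ± 0.18 (limma adjusted p = 0.0874 and 0.0824). Cox7a2l, a relative of subunit VIIa, had 0.36 ± 0.17 (limma adjusted p = 0.421). Cox8c passed without calorie restricted replicate 2, at -0.49, and with its probe sets averaged, at -1.27 (adjusted p = 0.0264 and 0.0284). Its second probe set, below the filter, read 15.9 to 66.2 in control and 2.18 to 11.3 in calorie restricted mice. Cox7a1, the muscle form of subunit VIIa, read at most 110.3 on any array and lay below the filter.

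Assembly factors of the oxidase had 2 genes higher and 0 lower of 12 tested, beside the 4.11% and 7.74% of all probe sets, with a median relative change of 0.43 (0.19 under quantile normalization). Cmc2, a small protein with paired cysteine motifs involved in assembly of the enzyme, read 366 to 479 in control and 595 to 1053 in calorie restricted mice, a relative change of 0.97 ± 0.20 (SE; limma adjusted p = 0.0250). Lrpprc, which stabilises mitochondrial mRNAs including those of the catalytic core, read 521 to 674 and 747 to 1714, a relative change of 0.91 ± 0.22 (adjusted p = 0.0451). Lrpprc passed in 2 of the 10 fits that left out 1 array (without calorie restricted replicate 1 or 5) and Cmc2 in 6 (not without control replicate 2, 3 or 4 or calorie restricted replicate 3). Both passed under quantile normalization, and neither did with RNA quality as covariate, where Lrpprc had 0.55 and Cmc2 0.59 (adjusted p = 0.269 and 0.162). With replicates 3 and 5 of the calorie restricted mice left out, Cmc2 passed and Lrpprc did not (adjusted p = 0.0486 and 0.0647). Among those that did not pass, Cox17, a copper carrier, had 0.50, Surf1, which helps insert heme, had 0.56 and Slirp, the partner of Lrpprc, had 1.01 (adjusted p = 0.502, 0.130 and 0.108).

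Of 11 regulators of respiratory genes tested, 0 passed in limma, with a median relative change of 0.03. The 2 with the smallest p were Foxo3 at 0.74 ± 0.21 (SE) and Yy1 at 0.86 ± 0.38 (adjusted p = 0.0847 and 0.224). Gabpa, the DNA-binding subunit of GABP, had -0.41 and Sp1 -0.84 (adjusted p = 0.269 and 0.326). General mitochondrial genes, such as carriers and enzymes of the matrix, had 0 passing of 19 tested and a median of 0.14. Slc25a5, an ADP and ATP carrier, had -1.43 ± 0.52 and Mdh2, mitochondrial malate dehydrogenase, 0.76 ± 0.20 (SE; adjusted p = 0.0629 and 0.0674). At an unadjusted limma p under 0.05, 1 of the 11 regulators and 4 of these 19 mitochondrial genes did so, as did 2352 of all 7453 probe sets. Over all probe sets tested, 4.11% were called higher and 7.74% lower.

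The other complexes of the chain were read from the same arrays. Of 50 tested genes of complexes I, II, III and V with cytochrome c, 11 rose, 1 fell and 38 did not pass, and 41 had a relative change above 0. Over all probe sets tested 4.11% were higher and 7.74% lower, and among the 1491 brightest 11.1% were higher. The 11 became 6 of 50 under quantile normalization, where 4.32% of all probe sets were higher. With RNA quality as covariate they became 3 of 50, against 2.08% of all. For complex IV, with 1 probe set per gene, 2 of 7 rose, 1 fell and 6 lay above 0. The median relative change was 0.75 in complex IV, 0.996 in complex III with cytochrome c, 0.63 in ATP synthase, 0.48 in complex I and 0.06 in complex II, beside 0 over all tested probe sets by construction. Under quantile normalization these medians were 0.33, 0.66, 0.20, 0.15 and -0.17, so that of complex II changed sign. With RNA quality as covariate they were 0.33, 0.55, 0.21, 0.35 and 0.29, and that of complex II was not the lowest. Cycs, the cytochrome c that feeds electrons to the oxidase, had 0.01 (limma adjusted p = 0.751). In complex III Uqcrc2, Uqcrq, Uqcrh and Uqcr10 were called higher, at 1.01 to 1.42. In complex I Ndufc1, Ndufa5, Ndufb5, Ndufa6 and Ndufb7 were called higher, at 0.74 to 1.71. In complex II the smallest p belonged to Sdhd at 0.59 and Sdha at -0.11 (limma adjusted p = 0.132 and 0.397). It had 0 of 4 passing and 1 at an unadjusted p under 0.05, a level that 2352 of all 7453 probe sets reached. In ATP synthase Atp5e had 1.66 and Atp5d 0.80 and both were called higher, and Atp5pb had -0.40 and fell. Of 3 other tested probe sets of Atp5d, 2 had a change of opposite sign, 1 of them called lower. With its probe sets averaged Atp5d had -0.11. Differences between these lists were not tested.

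**Figure D4:**
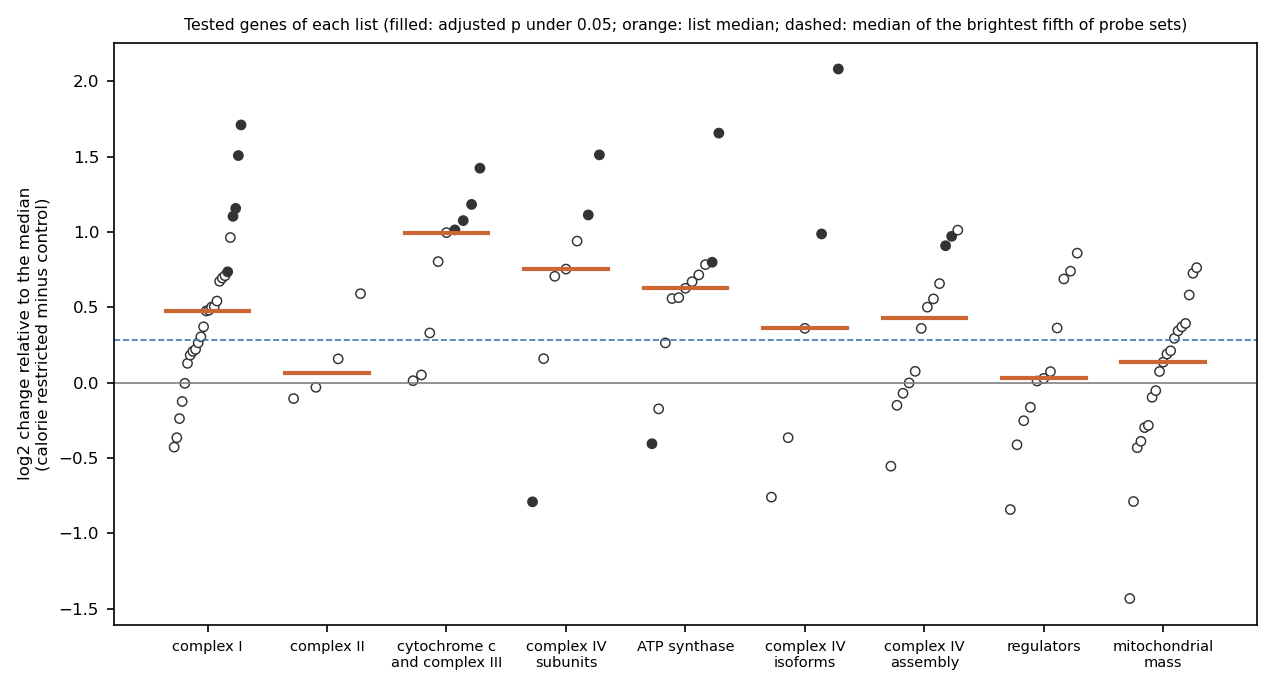
Log2 change relative to the median of all tested probe sets (y axis) for the tested genes of each list (x axis), 1 point per gene; filled points have an adjusted p under 0.05, orange bars are list medians and the dashed line, at 0.28, is the median of the 1491 brightest probe sets. Complex IV has filled points at 1.51, 1.11 and -0.79.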

How the data were processed

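Hippocampal RNA of 10 mice was measured on 10 Affymetrix arrays, 5 per diet. The deposited values are intensities on a linear scale, made with MAS5 per the submitters' processing notes; in the files each array has a trimmed mean of 500 (2% off each end). The sources used here name no other step. Of 12488 probe sets 66 controls were left out; of the other 12422, 10833 had 1 gene symbol, 396 several and 1193 none, and 10817 of the symbols matched RefSeq. No read depth applies; the number of arrays limits the precision.

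Values were floored at 1 (41 of 124880 lay below) and log2 transformed, with no further normalization. Probe sets with a mean log2 signal at or above the 40th percentile, 6.85, were tested, 7453 in all, with limma 3.58.1 in R 4.3.3 (lmFit, eBayes with a variance trend) and Benjamini-Hochberg adjustment. The fit was tested on simulated data with independent noise and no difference in array quality between diets. That test therefore says nothing on the part of array quality in the calls. RNA quality was the mean log2 3' minus 5' signal of Gapdh and Actb, and spike-in signal the mean of 9 control probe sets. Samples were grouped by the diet in the labels, and p-values of array measures are from exact permutation tests. Figures and tables used Python 3.11.15.

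The members and lists were chosen with earlier results of these data known. Genes named were all members and isoforms, in each list of the chain, assembly and regulators those that passed and the 2 of smallest p, and the 5 nearest profiles; Cycs, Cox17, Surf1, Slirp, Gabpa and Sp1 were added after their values were seen. Gene lists took 1 probe set per gene. Subunits encoded by mitochondrial DNA had 0 probe sets by symbol. Alternatives were quantile normalization, other filters, an added constant, array weights, no variance trend, covariates, a replicate block, averaged probe sets, a stricter threshold and leaving out arrays.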

Additional observations from a re-analysis of the deposited data

Results flagged for a closer look

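In 30 groups of 5 arrays, 3 held an array far from the other 4 by Dixon's criterion, which chance alone exceeds in about 1 in 20 groups. For Cox6c, probe set 100550_f_at, calorie restricted replicate 5 read 27114.5 and the other calorie restricted arrays 10580.6 to 12885.2. That array also had the largest 3' minus 5' difference, 6.11, and the part of RNA quality in the reading was not tested. For Cox5a, probe set 160438_at, control replicate 3 read 70.2 and the other control arrays 120.2 to 146. For Cox8a, calorie restricted replicate 1 read 6.26 and the other calorie restricted arrays 44.7 to 91.0. The probe sets of Cox5a and Cox8a lay below the signal filter.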

How the results depend on the processing

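Cox6a1 had a relative change above 0 in all 22 alternatives and passed in 19; with both covariates that change was 0.057, and the change tested, before the median is taken off, was -0.090. Cox7a2 passed in 16 and Cox6b1 in 9. Over all probe sets, 306 higher and 577 lower became 322 and 279 under quantile normalization, 155 and 178 with RNA quality as a covariate, 0 and 0 with spike-in signal added (907 at an unadjusted limma p under 0.05), 179 and 211 under quantile normalization without calorie restricted replicates 3 and 5, 168 and 326 with probe sets of a gene averaged and 33 and 39 at a threshold of 0.01, and the lower count was 378 under the stricter filter. Leaving out 1 array gave 110 to 412 higher and 143 to 839 lower, with a count moved by over 1.5 times without any control replicate or calorie restricted replicate 3 or 4. Of the subunits, 2 higher became 0 under quantile normalization (also without replicates 3 and 5), with both covariates and at 0.01, 1 with RNA quality, 4 with the probe sets of Cox7c and Gm12338 counted (chosen after seeing the data) and 1 to 3 with 1 array left out (1 without control replicate 3 or 4, 3 without calorie restricted replicate 2). The 1 lower became 0 under all of these settings except with the shared probe sets counted. That count also became 0 without a filter and without replicates 3 and 5, and was 0 to 1 with 1 array left out. For the rest of the chain, 11 higher became 6 under quantile normalization, 3 with RNA quality, 0 with both covariates, 4 under quantile normalization without replicates 3 and 5, 2 at 0.01 and 4 to 13 with 1 array left out (4 without control replicate 2, 3 or 4, 5 without calorie restricted replicate 3). Its 1 lower became 0 under those settings, without a filter, without replicates 3 and 5 and with the replicate block, and was 0 to 1 with 1 array left out (1 without calorie restricted replicate 2 or 5).

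Directions turned as follows, and the cause was not tested. Cox4i1 102124_f_at had -0.33 with RNA quality, -0.012 with both covariates, -0.14 without replicates 3 and 5, -0.091 under quantile normalization as well, and -0.070 to 0.37 with 1 array left out (-0.070 without calorie restricted replicate 5). Cox4i1 93788_at had 0.082 under quantile normalization, 6.6e-05 with RNA quality and 0.11 under quantile normalization without replicates 3 and 5. With both covariates Cox6c 100550_f_at had -0.37, Cox7a2 93820_at -0.067, Cox7b 101580_at -0.0086 and Uqcrh 99115_at -0.0092. With RNA quality Cox7b 101580_at had -0.0096 and Yy1 98767_at -0.12. With averaged probe sets Cox6c had -0.080 and Atp5d -0.11. The shared probe set Gm12338;Cox7c 99661_r_at had -0.17 under quantile normalization and -0.085 without replicates 3 and 5 as well. Sdha 94080_at had -0.23 to 0.011 with 1 array left out (0.011 without calorie restricted replicate 2).

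Arrays of the same replicate number did not deviate together (correlations of -0.076, 0.051, -0.057, 0.022 and 0.172, and 1 of 5 closest to its own number). The signals thus showed no pairing by number, and the sample titles do not say whether mice were paired. With the replicate block 195 probe sets were higher and 345 lower, and of the subunits 2 were higher and 1 lower. With the block Cox6b2, Lrpprc and the shared probe set 99661_r_at missed the threshold (limma adjusted p = 0.111, 0.0665 and 0.100).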
